A study of Homo sapiens with 6 samples.

Results

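The genes described here are 10 enzymes that make or break the endocannabinoid lipids, *NAPEPLD*, *GDE1*, *ABHD4*, *FAAH*, *NAAA*, *DAGLA*, *DAGLB*, *MGLL*, *ABHD6* and *ABHD12*. They were taken by symbol from a table of 20381 genes, in which all 10 had a row. The set was selected on the values of *NAPEPLD* in the comparison described here, in which its count was lower in the cells that expressed *PON1*, and the other enzymes were added by their role. The values of all 10 in this contrast are therefore given as a description, and calls are counted only beside those of all genes. After a filter on low counts, 9 of the 10 were among the 11958 genes tested, and *FAAH* was not.

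Endocannabinoids are fatty acid signals that cells build from membrane phospholipids on demand. The N-acylethanolamines, among them anandamide and palmitoylethanolamide, are released from N-acylphosphatidylethanolamines by NAPEPLD in a single step, or by ABHD4 and GDE1 in successive steps, and are cleaved by the amidases FAAH and NAAA. The other main endocannabinoid, 2-arachidonoylglycerol, is made from diacylglycerol by DAGLA and DAGLB and is cleaved to arachidonic acid and glycerol by MGLL, ABHD6 and ABHD12. In liver cells these lipids act on cannabinoid receptors and, for several N-acylethanolamines, on the nuclear receptor PPARA.

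Poly(A) RNA was sequenced from HCCLM3 cells, a human hepatocellular carcinoma line, to ask which transcripts differ when the lactonase gene *PON1* is expressed in cells that have little of it. The PON1-OE group (3 libraries) carried a lentivirus with the *PON1* coding sequence and the NC group (3 libraries) carried the lentivirus with an empty vector. Both groups were otherwise HCCLM3 cells in RPMI-1640 medium, selected with puromycin per the study's methods, and the promoter of the vector, the number of clones in a line and the origin of the replicates are not given in the sources used here. The design text describes lysis soon after transfection where the methods describe stable lines, and the serum content given also differs. The p-values therefore measure the spread between these libraries, which may be technical.

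The estimated counts summed to between 15706664 and 17948372 per library, and the floor, set at 3 counts, was equal to between 0.166 and 0.192 CPM (counts scaled to a common library total). Rounded *PON1* counts were 0, 2 and 3 in the NC libraries. With the lentivirus they were 155, 181 and 167, which is at least 57.6-fold higher when set against the floor of 3 counts in one library. Of 13 hepatocyte markers 9 were tested. *HNF4A* (78.6 CPM in NC against 80.2 in PON1-OE), *KRT8* and *KRT18* were present. *ALB*, a defining secreted product of hepatocytes, was low, with between 4 and 13 counts per library. Of other secreted products, *TF* had 21.3 CPM in NC against 19.0 CPM in PON1-OE, without overlap. *TTR* and *SERPINA1* were at or under the floor in every library. Among 11 markers of other cell types, *PTPRC* and *CD3E* were listed at 0 in every library, and 4 were tested. The level summed over the 11, most of it from the lysosomal gene *CD68*, ranged from 233 to 251 CPM in NC and from 251 to 276 CPM in PON1-OE. *PECAM1* was also present, at 13.1 CPM in NC against 15.1 CPM in PON1-OE, and its groups did not overlap. The keratins *KRT7* (8.31 against 8.69 CPM) and *KRT19* (3.97 against 3.95 CPM) were present with overlapping groups. The part of these markers in the results was not tested.

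*NAPEPLD* (ENSG00000161048, minus strand of chromosome 7, 103099776 to 103149560, GRCh38) is the enzyme whose level differed most between the groups. RefSeq (GRCh38.p14) lists 3 starts for it. The 250 bases before the outermost start are shown because *NAPEPLD* is the gene the comparison turns on. They lie on the minus strand at chr7:103150002-103150251, outside the exons of the GENCODE v29 gene model, with CG dinucleotides and the 1 TATAAA match (either strand) in capitals.
NAPEPLD start 3: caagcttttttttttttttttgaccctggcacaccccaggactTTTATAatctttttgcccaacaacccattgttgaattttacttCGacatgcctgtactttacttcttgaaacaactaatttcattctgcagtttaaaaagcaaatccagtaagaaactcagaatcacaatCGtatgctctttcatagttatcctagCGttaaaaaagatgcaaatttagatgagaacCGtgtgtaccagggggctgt

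This window held 4 CG dinucleotides and 36.4% G and C, whereas those before the other two starts, which overlap annotated exons and are not printed, held 31 and 33 CG dinucleotides, against a median of 11 over 35116 promoters in the RefSeq table. TATAAA occurred on either strand in 10.7% of these promoters. TCACNCCAC (sterol regulatory element) and CACGTG (E-box), each searched on both strands, were in none of the windows of the 6 enzymes with an entry, and in 0.883% and 6.34% of all promoters. The libraries do not tell which start was used.

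Rounded counts of *NAPEPLD* were 222, 241 and 246 in NC against 160, 113 and 169 in PON1-OE. Scaled for library size, these were 13.4, 13.3 and 14.4 CPM in NC against 9.74, 7.07 and 10.8 CPM in PON1-OE. All 3 PON1-OE libraries lay below all 3 NC libraries, and PON1-OE replicate 2 was the lowest. The mean was 13.7 ± 0.605 CPM (SD, n = 3) in NC and 9.20 ± 1.92 CPM (SD, n = 3) in PON1-OE, a ratio of 0.670 and a log2 fold change of −0.58 with an SE of 0.13. In bulk RNA such a difference cannot be told apart from one in the share of cells that express the gene.

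With edgeR (quasi-likelihood F-test, p adjusted by Benjamini-Hochberg), *NAPEPLD* was the only 1 of the 9 enzymes with an adjusted p under 0.05, a threshold that 0.677% of all genes tested passed (81 genes, of which 21 were lower and 60 higher). With a change of more than 1.5-fold in either direction also required, none of the enzymes passed, while 0.0502% of all genes did, and *NAPEPLD* at a ratio of 0.670 fell just short. With the unadjusted p and the same fold threshold, which 0.61% of all genes passed, again none of the enzymes did. The call of *NAPEPLD* was lost by DESeq2 and when any of the 3 NC libraries, PON1-OE replicate 1 or PON1-OE replicate 2 was left out, and it was kept without PON1-OE replicate 3. Its log2 fold change ran from −0.71 without PON1-OE replicate 3 to −0.42 without PON1-OE replicate 2.

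**Figure D1:**
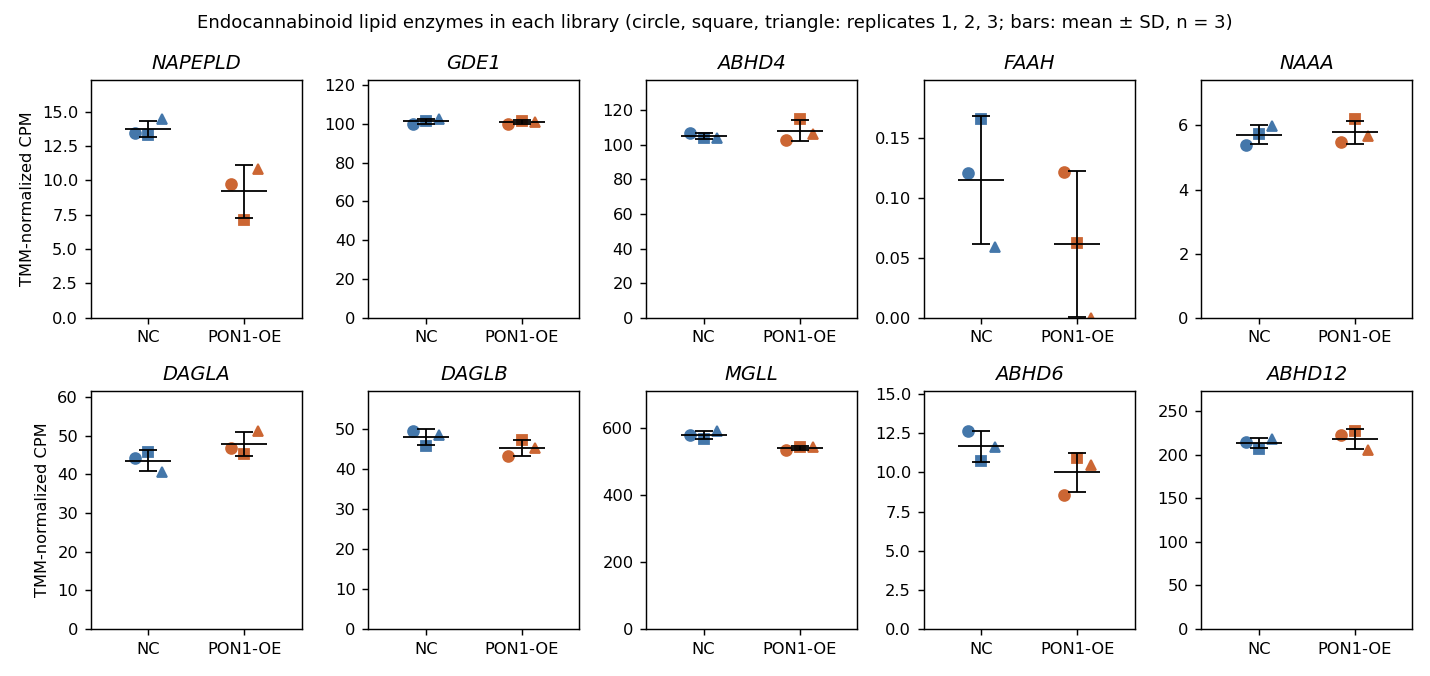
Level of each of the 10 enzymes in the 6 libraries, in TMM-scaled CPM, with the mean and SD of the NC and PON1-OE groups (n = 3 each). The 3 PON1-OE libraries lie below the 3 NC libraries for *NAPEPLD* (9.20 against 13.7 CPM) and for *MGLL* (540 against 580 CPM), and the groups overlap for the others.

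The counts of *NAPEPLD* were not independent of those of its neighbours. It was the only 1 of the 10 enzymes whose deposited values were not whole numbers, with 222.06, 240.81 and 245.58 in NC against 159.8, 112.73 and 169.18 in PON1-OE. *ARMC10*, on the opposite strand with its 3′ end 11 bases from that of *NAPEPLD*, and *FBXL13*, 37 bases from the 5′ end of *ARMC10*, also had fractional values. Added together, the 3 genes came to 2573.01, 2923.99 and 2601 in NC and to 2507, 2507 and 2556 in PON1-OE, within 0.01 of a whole number in 6 of 6 libraries. Among 3387 genes with fractional values that were tried as the third gene, *FBXL13* was the only one that made the sum whole (tolerance 0.02) in all 6. *NAPEPLD* and *ARMC10* alone already came to a whole number, at this tolerance, in 3 of 6 libraries. The values of *FBXL13* were at most 0.12 from whole, so its tie to the others rests on small fractions. Neither neighbour shares an exon with *NAPEPLD* in GENCODE v29, and both were picked with their values in view.

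*ARMC10*, which encodes an armadillo-repeat protein, made up 74.8% of the summed reads in NC, *FBXL13*, which encodes an F-box protein, 16.4% and *NAPEPLD* 8.75%. *ARMC10* had 117 ± 2.63 CPM in NC against 119 ± 4.61 CPM in PON1-OE, with a log2 fold change of 0.02 (SE 0.05). *FBXL13* had 25.7 ± 2.55 CPM in NC against 29.6 ± 1.70 CPM in PON1-OE, with a log2 fold change of 0.20 (SE 0.08). For both neighbours the groups overlapped. The sum of the 3 genes had a log2 fold change of 0.0076 (SE 0.04). Because *NAPEPLD* is a small share of it, its own difference would move the sum by only −0.04 with the neighbours at their NC means, which is the size of that SE, so the sum cannot show whether the difference is present. Whether it lies in the transcript or in how reads were divided among these genes was not tested.

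**Figure D2:**
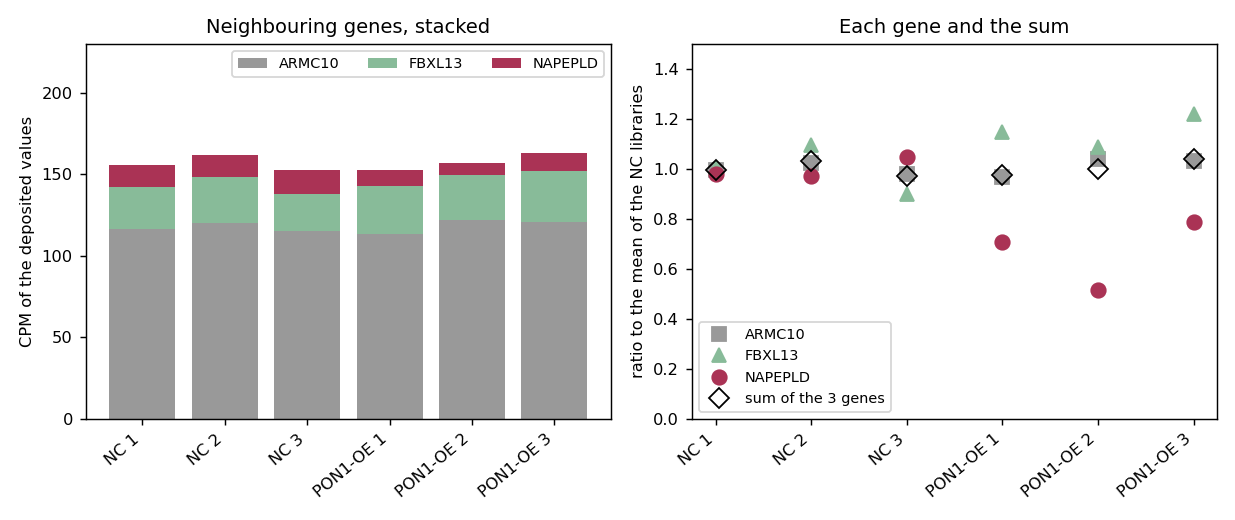
Left, CPM of *ARMC10*, *FBXL13* and *NAPEPLD* stacked for each library, from the deposited values, and right, each gene and their sum as a ratio to the mean of the NC libraries (n = 3 per group). *NAPEPLD* makes up 8.75% of the sum in NC, it is the only one of the 3 genes with all PON1-OE libraries under all NC libraries, and the sum, at means of 157 and 158 CPM, is mostly *ARMC10*.

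The other enzymes that can release N-acylethanolamines differed less. GDE1, a glycerophosphodiesterase that frees the ethanolamide in the last step of the alternative route, is encoded on chromosome 16 (ENSG00000006007, minus strand, 19501689 to 19522145). *GDE1* had 100.1, 101.5 and 102.4 CPM in NC against 99.9, 101.7 and 101.2 CPM in PON1-OE, with a log2 fold change of −0.01 (SE 0.04). The 2 groups were almost superimposed, and this was the smallest spread between libraries of any of the enzymes tested relative to its level.

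ABHD4, the lipase that removes acyl chains from N-acylphosphatidylethanolamines before that step, is encoded on chromosome 14 (ENSG00000100439, plus strand, 22598237 to 22613215). *ABHD4* had 107, 104 and 104 CPM in NC against 103, 115 and 107 CPM in PON1-OE, with a log2 fold change of 0.04 (SE 0.05). PON1-OE replicate 2 was the highest library here, whereas it was the lowest for *NAPEPLD*, and the groups overlapped.

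Of the amidases that break N-acylethanolamines, FAAH, a serine hydrolase of the endoplasmic reticulum that cleaves anandamide, was close to absent. *FAAH* (ENSG00000117480, chromosome 1, plus strand, 46394265 to 46413848) had 2, 3 and 1 counts in NC against 2, 1 and 0 in PON1-OE. All 6 libraries were at or under the floor of 3 counts, so no fold is given and a difference was not detectable at this depth. NAAA, the lysosomal amidase that prefers palmitoylethanolamide, was measured above the floor. *NAAA* (ENSG00000138744, chromosome 4, minus strand, 75913657 to 75941051) had 89, 104 and 102 counts in NC against 90, 99 and 89 in PON1-OE, or 5.71 ± 0.298 and 5.78 ± 0.367 CPM (SD, n = 3 each). The groups overlapped, the log2 fold change was 0.02 (SE 0.15), and 102 exonic bases of *NAAA* are shared with *SDAD1* on the same strand. Summed with *SDAD1* the log2 fold change was −0.04.

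DAGLA and DAGLB are the diacylglycerol lipases that make 2-arachidonoylglycerol, and their genes had opposite signs here. *DAGLA* (ENSG00000134780, chromosome 11, plus strand, 61680433 to 61747001) had 44.4, 45.8 and 40.6 CPM in NC against 46.9, 45.4 and 51.3 CPM in PON1-OE, with a log2 fold change of 0.13 (SE 0.07). *DAGLB* (ENSG00000164535, chromosome 7, minus strand, 6409126 to 6484190) had 49.5, 45.7 and 48.5 CPM in NC against 43.2, 47.3 and 45.2 CPM in PON1-OE, with a log2 fold change of −0.08 (SE 0.06). For both genes 1 library of each group reached into the range of the other, and neither passed the unadjusted threshold given below. Over the alternatives *DAGLA* ranged from 0.08 to 0.17 and *DAGLB* from −0.12 to −0.05. *DAGLB* shares 376 exonic bases with *KDELR2* on the same strand, and its log2 fold change summed with that gene was also −0.08.

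MGLL, the serine hydrolase that carries out most breakdown of 2-arachidonoylglycerol in many tissues, was the other enzyme whose groups did not overlap. *MGLL* (ENSG00000074416, chromosome 3, minus strand, 127689062 to 128052190) had 9575, 10272 and 10086 counts in NC against 8751, 8691 and 8520 in PON1-OE. These were 579.8, 567.9 and 591.5 CPM in NC against 532.8, 543.5 and 543.9 CPM in PON1-OE. The 2 groups did not overlap, although the gap between them was small. The means were 580 ± 11.8 and 540 ± 6.30 CPM (SD, n = 3 each), and the log2 fold change was −0.10 with an SE of 0.03, between −0.12 and −0.09 over the alternatives tried.

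ABHD6, a membrane hydrolase that faces the cytosol, is encoded on chromosome 3 (ENSG00000163686, plus strand, 58237506 to 58295693). *ABHD6* had 12.7, 10.7 and 11.6 CPM in NC against 8.59, 10.9 and 10.5 CPM in PON1-OE, from 141 to 209 counts per library. Its log2 fold change was −0.22 (SE 0.12), and it ranged from −0.29 when PON1-OE replicate 2 was left out to −0.12 when PON1-OE replicate 1 was. In the full set PON1-OE replicate 2 exceeded NC replicate 2, so the groups overlapped. ABHD12, a hydrolase that also degrades lysophosphatidylserine, is encoded on chromosome 20 (ENSG00000100997, minus strand, 25294743 to 25390983). *ABHD12* had 215, 206 and 217 CPM in NC against 222, 227 and 205 CPM in PON1-OE, with a log2 fold change of 0.04 (SE 0.04) and overlapping groups. The span of *MGLL* overlaps *SEC61A1* and *KBTBD12*, and that of *ABHD12* overlaps *PYGB*, all on the opposite strand and with no exonic base in common. Exons of *GDE1*, *ABHD4* and *DAGLA* do overlap annotated transcripts of the opposite strand, by 206 to 765 bases per transcript, and without strand in the counting their reads could not be told apart.

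Over the 9 enzymes tested, 5 had a negative and 4 a positive log2 fold change, and the median was −0.01, beside 6095 negative and 5863 positive among all genes and a median of 0.00. *NAPEPLD* and *MGLL* had an unadjusted edgeR p under 0.05, as did 11.1% of all genes, and the same 2 enzymes were the ones whose groups did not overlap, as for 16.1% of all genes. Without NC replicate 2, or without PON1-OE replicate 2, 5 enzymes had groups that did not overlap, with *ABHD6*, *DAGLA* and *DAGLB* added in both cases. With 2 libraries against 3 such a separation is more frequent, and it held for 28% and 29.6% of all genes in these settings. Without PON1-OE replicate 3 there were 3 enzymes, with *ABHD12* added, against 24.7% of all genes. Of all genes, 5% had a log2 fold change below −0.24 and 5% one above 0.24, and *NAPEPLD* was the only enzyme outside this range. Over 13 alternatives *GDE1* was positive in 2, and *ABHD4* and *NAAA* were negative in 1 and 2, so these genes have no settled sign.

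**Figure D3:**
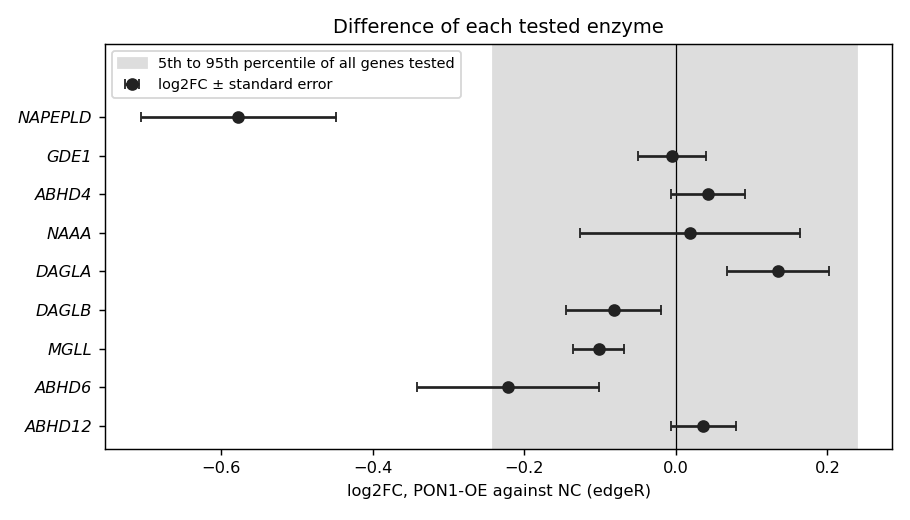
Log2 fold change, PON1-OE against NC, of the 9 enzymes tested, with bars of 1 SE and the 5th to 95th percentile of all genes tested in grey. *NAPEPLD* at −0.58 (SE 0.13) stands apart from the other 8, which lie between −0.22 and 0.13.

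The levels of the enzymes within the line were compared as CPM per kilobase of merged exons, over all 6 libraries. *ABHD12* was the highest at 62.9 ± 2.55 CPM per kilobase (SD, n = 6), followed by *MGLL* at 47.3 ± 1.97, *ABHD4* at 26.2 ± 1.07 and *GDE1* at 22.9 ± 0.218. *DAGLB* (8.09 ± 0.403) and *DAGLA* (7.95 ± 0.605) came next and did not differ beyond their spread on this length. *ABHD6* followed at 3.02 ± 0.377, then *NAPEPLD* at 1.52 ± 0.369 and *NAAA* at 1.29 ± 0.0677, which overlapped, and *FAAH* at 0.0318 ± 0.0213. The order was the same in the NC libraries alone. With the longest transcript as the length, *MGLL* came above *ABHD12*, *GDE1* above *ABHD4* and *NAAA* above *NAPEPLD*, so the order within these pairs rests on the gene model. *DAGLB* (16.1) stayed above *DAGLA* (7.95) and separated from it, so for this pair the size of the gap rests on the gene model.

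**Figure D4:**
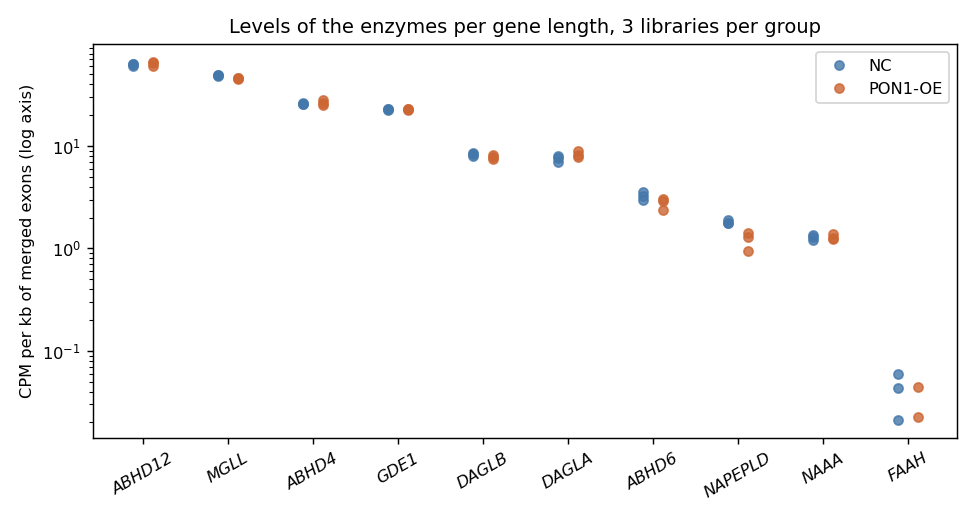
Level of the 10 enzymes in CPM per kilobase of merged exons, on a log axis, by library (NC and PON1-OE, n = 3 each). The hydrolases of 2-arachidonoylglycerol *ABHD12* (62.9) and *MGLL* (47.3) lead, *NAPEPLD* (1.52) and *NAAA* (1.29) are low, and *FAAH* in PON1-OE replicate 3 is at 0 and not drawn.

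Summed by role on the same scale, the 3 genes that make N-acylethanolamines came to 50.6 ± 0.243 CPM per kilobase in NC and 50.6 ± 1.48 in PON1-OE (SD, n = 3 each), most of it from *ABHD4* and *GDE1*. The 2 amidases that break them came to 1.32 ± 0.0601 and 1.32 ± 0.0794. For 2-arachidonoylglycerol the 2 lipases that make it summed to 15.9 ± 0.411 in NC against 16.2 ± 0.561 in PON1-OE, and the 3 hydrolases that break it to 114 ± 2.85 and 112 ± 3.30. The groups overlapped in all 4 sums. These are sums of RNA levels and say nothing about the amounts of the enzymes or the lipids.

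Within the hydrolases, the ratio of *MGLL* to *ABHD12* per length was 0.788 ± 0.00803 in NC against 0.718 ± 0.0430 in PON1-OE (SD, n = 3 each), and the groups did not overlap. They also did not overlap for *ABHD12* to *ABHD6* (19.2 in NC against 23.1 in PON1-OE), and did for *MGLL* to *ABHD6* (15.1 against 16.5). Such a separation was not counted over ratios of other genes, so it is a description. Further ratios to *NAPEPLD* were computed and are not given. The ratio of *DAGLB* to *DAGLA* was 1.10 ± 0.0985 in NC against 0.947 ± 0.0839 in PON1-OE, with overlapping groups. *NAAA* per length was 0.705 ± 0.0260 times *NAPEPLD* in NC and 1.11 ± 0.326 times in PON1-OE, a ratio that carries the same limit on the *NAPEPLD* counts as above. These ratios rest on merged exons, and the length scales both groups alike. With the longest transcript as the length, the NC means became 1.17 for *MGLL* to *ABHD12*, 2.19 for *DAGLB* to *DAGLA* and 1.09 for *NAAA* to *NAPEPLD*. Which gene of these pairs is the higher is thus not settled by these data. Against *ABHD6* the NC means became 21.5 for *ABHD12* and 25.1 for *MGLL*.

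Around these enzymes, 76 further genes of the pathway were listed in 5 groups, and 50 of them were tested. None had an adjusted p under 0.05 in edgeR with Benjamini-Hochberg adjustment. Of the 50, 21 had a positive and 29 a negative log2 fold change, with a median of −0.03 and a range from −0.31 to 0.32. An unadjusted p under 0.05 was reached by 12 of the 50 (2 higher and 10 lower), where 11.1% of all genes reached it, 5.91% higher and 5.17% lower. The groups did not overlap for 14 of the 50, against 16.1% of all genes. By DESeq2 there were 0 genes past the adjusted and 7 past the unadjusted threshold, which 5.51% of all genes in that fit passed.

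**Figure D5:**
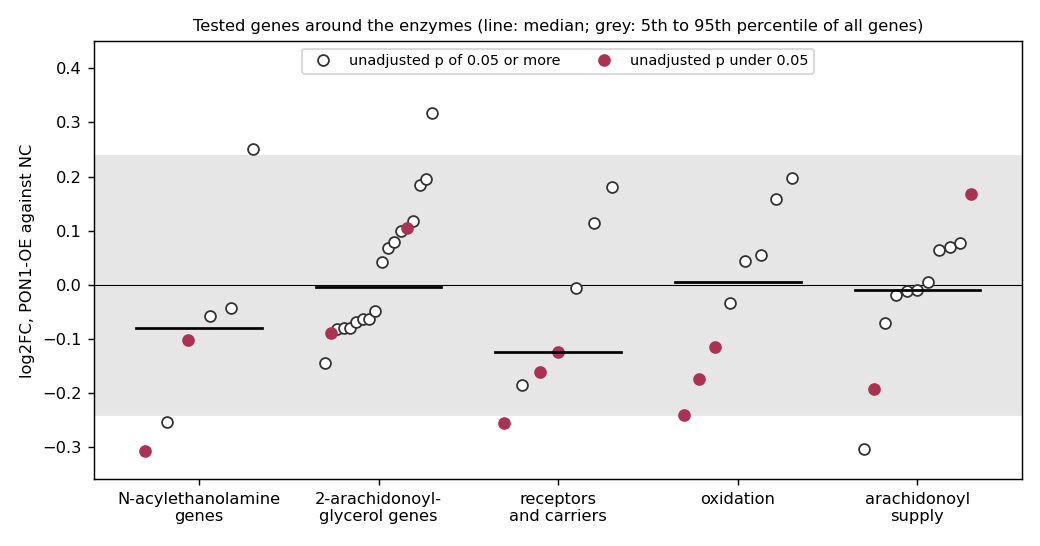
Log2 fold change, PON1-OE against NC, of the 50 tested genes in the 5 pathway groups, with the median of each group as a line and the 5th to 95th percentile of all genes in grey. The medians lie between −0.12 (receptors and carriers) and 0.01 (oxidation), and the filled points are the 12 genes with an unadjusted p under 0.05.

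Among the further genes of N-acylethanolamine metabolism, 6 of 10 were tested, 5 with a negative and 1 with a positive sign, and the median was −0.08. *PLAAT2*, of a family of phospholipases and acyltransferases that can form the N-acylated precursor, had 206, 214 and 178 counts in NC against 163, 151 and 136 in PON1-OE. Its groups did not overlap, and its log2 fold change was −0.31 (SE 0.12), with an adjusted p of 0.297 in edgeR's quasi-likelihood test. *PLAAT3*, of the same family, had −0.10 (SE 0.04), and its groups did not overlap. *ASAH1*, the acid ceramidase, which is related to NAAA, had −0.06 (SE 0.04), and its groups overlapped.

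Of 21 further genes of 2-arachidonoylglycerol metabolism, 18 were tested and split evenly, 9 of each sign, with a median of 0.00. *ABHD2*, a serine hydrolase that can also cleave this lipid, had a log2 fold change of −0.09 (SE 0.03). *DGKZ*, a kinase that turns diacylglycerol into phosphatidic acid, had 0.11 (SE 0.05). *PLCB1*, a phospholipase C that releases diacylglycerol, had −0.14 (SE 0.08). None of these passed the adjusted threshold, and the first 2 passed the unadjusted one. The groups did not overlap for any of them.

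The cannabinoid receptors were at or near 0, while nuclear receptors and *TRPV1* were measured above the floor. Of 15 receptors and carriers, 8 were at or under the floor of 3 counts in every library and 7 of these were listed at 0. Those at 0 include *CNR1*, the main cannabinoid receptor of the brain, and *GPR55*, but also the carriers *FABP1* and *FABP7*. *CNR2*, the cannabinoid receptor of immune cells, had 1 count in 1 NC library and 0 in the others. The nuclear receptor *PPARA* had 430, 415 and 431 counts in NC against 311, 352 and 332 in PON1-OE. The groups did not overlap, and its log2 fold change was −0.26 (SE 0.08), with an adjusted p of 0.226 in edgeR's quasi-likelihood test. *TRPV1*, an ion channel that anandamide opens, had 88, 83 and 73 counts in NC against 109, 71 and 78 in PON1-OE, so its groups overlapped. Of the lipid carriers, *FABP3* had a log2 fold change of −0.16 (SE 0.06) and *SCP2* of −0.12 (SE 0.06), and the groups of both did not overlap.

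Oxidation is the other fate of these lipids and of the arachidonic acid they release, and 8 of 17 such genes were tested, 4 of each sign. *PTGS2*, the inducible cyclooxygenase, which also oxidises anandamide and 2-arachidonoylglycerol, had 476, 513 and 464 counts in NC against 425, 388 and 333 in PON1-OE. Its groups did not overlap, with a log2 fold change of −0.24 (SE 0.08) and an adjusted p of 0.236 in edgeR's quasi-likelihood test. *AKR1B1*, an aldose reductase that also forms prostaglandin F, was abundant, with 25615, 23486 and 25934 counts in NC against 21704, 21982 and 18395 in PON1-OE. Scaled to CPM the groups overlapped, and the log2 fold change was −0.17 (SE 0.05), with an adjusted p of 0.196 in edgeR's quasi-likelihood test. In edgeR its adjusted p was 0.00388 without the filter and 0.00948 without NC replicate 2, within a range of 0.00388 to 0.625 over 12 alternatives. *AKR1C3*, a related reductase, had a log2 fold change of −0.11 (SE 0.05), and its groups overlapped.

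Of 13 genes that supply arachidonoyl chains, 11 were tested, 5 with a positive and 6 with a negative sign. *LPCAT3*, which places arachidonoyl chains on lysophospholipids, had 837, 927 and 839 counts in NC against 757, 715 and 647 in PON1-OE. Its groups did not overlap, and the log2 fold change was −0.19 (SE 0.06), with an adjusted p of 0.211 in edgeR's quasi-likelihood test. *FADS2*, a desaturase on the route to arachidonic acid, had a log2 fold change of 0.17 (SE 0.08), and *MBOAT1*, a lysophospholipid acyltransferase, of −0.30 (SE 0.15). The groups of both overlapped.

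Among 8806 genes with a mean of at least 10 CPM, those whose levels followed *NAPEPLD* most closely over the 6 libraries were *UGCG* (Pearson's r = 0.989), which makes glucosylceramide, and *ELF1* (0.987), *AEBP2* (0.984), *SOCS6* (0.981) and *HSPH1* (0.980). All 5 were lowest in PON1-OE replicate 2, as *NAPEPLD* was. *UGCG* had 147.8, 144.3 and 146.1 CPM in NC against 132.9, 122.3 and 135.9 CPM in PON1-OE, with a log2 fold change of −0.16, and the other 4 lay between −0.19 and −0.14. Their difference between the groups was thus smaller than that of *NAPEPLD*. The 6 points are the libraries that also chose *NAPEPLD*, and the values share its group difference, so the likeness is a description.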

How the data were processed

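Poly(A) RNA of 3 PON1-OE and 3 NC libraries of HCCLM3 cells was sequenced on an Illumina NovaSeq instrument. The authors deposited a table of estimated counts per gene, not normalized, of which 10.5% were not whole numbers. Per the labels, HISAT2, Bowtie2 2.2.8, StringTie 1.3.1 and DESeq2 were used. Of these, the study's methods give a role only to DESeq2, the test of differential expression. The genome build, the annotation, the counter and its use of strand are not given in the sources used here. The 10 enzymes, the gene lists and the comparisons were chosen with earlier results of these data known.

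Counts were rounded to whole numbers, filtered (filterByExpr), scaled by TMM and tested in R 4.3.3 with edgeR 4.0.16 by its quasi-likelihood test. PON1-OE was compared with NC with no covariate and with Benjamini-Hochberg adjustment over 11958 genes. The SE is the log2 fold change divided by the square root of F. Coordinates and lengths are from GENCODE v29 (GRCh38), promoter sequences from RefSeq (GRCh38.p14). Named were all enzymes, of each list the genes past the adjusted threshold or otherwise the 3 with the smallest p, 5 receptors and channels, genes that overlap an enzyme, and the 5 genes most like *NAPEPLD*. Alternatives were RLE factors, no filter or a minimum of 10 counts per library, a replicate block, each library left out, DESeq2 1.42.0, limma-voom (limma 3.58.1), fold thresholds and sums with overlapping genes. The model was tested on simulated data. Replicates of a group differed by more than sampling noise (chi-square per degree of freedom 2.11 to 4.11). An exact permutation test of 3 against 3 libraries cannot go below p = 0.1. The floor of 3 counts covers counting error only.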

Additional observations from a re-analysis of the deposited data

How the results depend on the processing

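Over the whole table, 81 genes had an adjusted p under 0.05 by edgeR's quasi-likelihood test, against 177 without the filter, 6 with the fold threshold added, 121 by DESeq2 and 65 by limma-voom. Leaving out one library gave between 11 (NC replicate 3) and 103 genes (PON1-OE replicate 2), with 34 for NC replicate 1, 44 for PON1-OE replicate 1 and 18 for PON1-OE replicate 3. The enzymes called, 1 (*NAPEPLD*), became 0 by DESeq2 and with either fold threshold, and 0 to 1 when a library was left out. Such fits have fewer samples. The enzymes with groups that did not overlap, 2, became 2 to 5 when a library was left out, settings in which 24% to 29.6% of all genes had such groups. The wider lists, with 0 genes called, had 1 without the filter and 0 to 1 with a library left out, *AKR1B1* in both cases. With the replicate number as a block, 40 genes and 0 enzymes were called. The numbers did not pair the libraries, since the correlations of deviations were 0.0173, −0.0231 and 0.0205 and 0 of 6 libraries correlated best with their own number. In a sum chosen after seeing the data, *NAPEPLD* with *ARMC10* and *FBXL13* had a log2 fold change of 0.0076 where *NAPEPLD* alone had −0.58. *NAPEPLD* is 8.75% of that sum and would move it by −0.04 (SE of the sum 0.04), so the comparison does not inform on *NAPEPLD*. The causes of these changes were not tested. Depth limited *FAAH*, with at most 3 counts per library.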
